A study of Mus musculus with 8 samples.

Results

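Transcripts of 8 receptors of the tumor necrosis factor (TNF) receptor superfamily that costimulate T cells or signal their death were followed in regulatory T (Treg) cells labelled as WT or as lacking the calcium sensors STIM1 and STIM2. The members were chosen by symbol, as Tnfrsf1b (TNFR2), Tnfrsf4 (OX40), Tnfrsf8 (CD30), Tnfrsf9 (4-1BB), Tnfrsf18 (GITR), Tnfrsf25 (DR3), Cd27 and Fas, and all 8 were found among the 52459 genes listed. All 8 passed the filter on low values, a mean of 10 or more over the libraries, which left 15419 genes to test, and the lowest mean of a member in any group was 12.2 normalized counts. The data are 8 RNA-seq libraries of Treg cells in 4 groups of 2. All cells came from C57BL/6 mice. WT cells were labelled WT. The other cells were labelled Foxp3-YFPcre with the alleles Stim1 fl/f and Stim2 fl/fll, and their libraries, labelled Stim1/2-deficient, are called labelled libraries from here on. Both kinds of cell were sorted as CD4+CD25hi cells, without YFP (WT) or with it (Stim1/2-deficient), from the spleens and lymph nodes of female mice heterozygous for the Cre allele, and each sample pooled several mice. By the study these females carried the floxed alleles, so the WT cells held them too, without expressing Cre. Whether WT and Stim1/2-deficient samples came from the same mice is not stated, and the tests treated them as unrelated. Cre and YFP are driven by Foxp3, an X-linked gene, so genotype cannot be told apart from use of the Foxp3-YFPcre allele. The YFP gate also selected the Stim1/2-deficient cells for expression of Foxp3, whereas the gate of the WT cells did not. This difference between the gates cannot be told apart from genotype either. Unstimulated cells form a pair of groups (WT replicates 3 and 4, labelled replicates 1 and 2), and cells kept for 16 h on plates coated with 1 µg/ml of anti-CD3/CD28 antibodies form the other pair (replicates 1 and 2 of each genotype). The ages of the mice were not given in the labels.

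TNF receptor superfamily members are membrane proteins that are clustered by trimeric ligands. Most of the members described here recruit TRAF adaptors through a short cytoplasmic tail and activate NF-kB, which favours survival and proliferation of T cells, whereas Fas and Tnfrsf25 carry a death domain. Treg cells are known for high levels of GITR, OX40 and TNFR2, and 4-1BB and CD30 mark Treg cells that have recently met antigen. STIM1 and STIM2 sense the calcium content of the endoplasmic reticulum and open CRAC channels, whose calcium current activates the transcription factor NFAT after engagement of the T cell receptor.

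Of the 8 genes, 6 lie on chromosome 4 of the mouse (GRCm38.p6, RefSeq). Tnfrsf1b (145212368 to 145246870) and Tnfrsf8 (145267132 to 145315164) are 20.3 kb apart, Tnfrsf9 lies from 150920155 to 150946104 and Tnfrsf25 from 152115528 to 152120119. Tnfrsf4 (156013595 to 156016613) and Tnfrsf18 (156026322 to 156028894) are separated by 9.71 kb. Cd27 is on chromosome 6 (125232620 to 125237136) and Fas on chromosome 19 (34290647 to 34327775). The RefSeq table held 10 promoters for the 8 members, each from 250 bases before to 50 bases after a start site. Those of the 5 members that were called lower in unstimulated labelled libraries are shown because they shared that call. Capitals mark matches, on either strand, to the core of NFAT sites (GGAAA) or to AP-1 sites (TGANTCA).
Tnfrsf9 promoter 1, chr4:150919905-150920204, plus strand: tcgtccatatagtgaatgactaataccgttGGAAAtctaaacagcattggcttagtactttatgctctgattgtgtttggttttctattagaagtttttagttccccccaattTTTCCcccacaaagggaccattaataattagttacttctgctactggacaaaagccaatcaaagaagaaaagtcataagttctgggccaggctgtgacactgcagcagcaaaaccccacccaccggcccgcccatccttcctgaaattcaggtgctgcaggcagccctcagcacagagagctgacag
Tnfrsf9 promoter 2, chr4:150927749-150928048, plus strand: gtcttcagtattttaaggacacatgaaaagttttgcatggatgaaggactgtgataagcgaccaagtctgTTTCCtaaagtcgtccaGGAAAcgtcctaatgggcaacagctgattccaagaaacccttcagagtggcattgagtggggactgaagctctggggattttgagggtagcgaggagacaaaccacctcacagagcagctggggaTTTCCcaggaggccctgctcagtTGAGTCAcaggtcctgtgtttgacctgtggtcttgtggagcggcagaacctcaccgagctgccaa
Tnfrsf8, chr4:145315115-145315414, minus strand: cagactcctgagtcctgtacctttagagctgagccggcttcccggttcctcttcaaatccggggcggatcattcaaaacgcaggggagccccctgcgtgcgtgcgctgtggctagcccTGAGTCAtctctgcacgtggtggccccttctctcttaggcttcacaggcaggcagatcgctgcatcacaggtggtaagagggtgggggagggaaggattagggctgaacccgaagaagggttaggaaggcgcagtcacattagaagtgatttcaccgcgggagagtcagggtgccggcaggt
Tnfrsf4, chr4:156013445-156013744, plus strand: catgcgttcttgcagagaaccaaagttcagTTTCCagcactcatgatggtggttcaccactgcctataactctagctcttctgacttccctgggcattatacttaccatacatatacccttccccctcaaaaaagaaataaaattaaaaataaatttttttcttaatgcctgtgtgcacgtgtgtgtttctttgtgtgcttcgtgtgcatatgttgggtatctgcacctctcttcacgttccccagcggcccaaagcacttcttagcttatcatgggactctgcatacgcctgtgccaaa
Tnfrsf18, chr4:156026072-156026371, plus strand: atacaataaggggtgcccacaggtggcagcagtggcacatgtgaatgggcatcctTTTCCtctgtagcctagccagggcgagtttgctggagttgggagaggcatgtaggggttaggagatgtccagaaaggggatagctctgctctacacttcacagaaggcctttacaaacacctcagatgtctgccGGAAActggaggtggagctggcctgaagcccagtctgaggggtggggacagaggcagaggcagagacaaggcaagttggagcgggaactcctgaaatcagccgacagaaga
Tnfrsf1b, chr4:145246821-145247120, minus strand: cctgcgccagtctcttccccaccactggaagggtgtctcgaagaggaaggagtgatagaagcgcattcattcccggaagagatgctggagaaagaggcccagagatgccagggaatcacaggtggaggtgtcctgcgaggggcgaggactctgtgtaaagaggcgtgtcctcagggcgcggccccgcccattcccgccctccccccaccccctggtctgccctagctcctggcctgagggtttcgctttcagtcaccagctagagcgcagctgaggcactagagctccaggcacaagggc

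An NFAT core was found in a promoter of 6 of the 8 members, all except Tnfrsf1b and Tnfrsf8, beside 61.3% of the 32851 promoters in the table. An AP-1 match was found in 3 members. They were Tnfrsf8 (TGAGTCA at -132 from the start site), promoter 2 of Tnfrsf9 (TGAGTCA at -15) and Fas (TGAGTCA at -211), beside 7.81% of all promoters. A kB-like motif (GGANNTTCC, which may contain an NFAT core) was found in 0 members and in 4.26% of all promoters. Other forms of kB sites were not searched for, so this does not show that the promoters lack them. In promoter 2 of Tnfrsf9 the TTTCC marked at -38 lies within GGGGATTTCC, a kB-like stretch whose spacing the searched form does not cover. A member was counted if any of its promoters matched, whereas the percentages are of single promoters, so the 2 are not like for like. These matches are letters within short windows and were not linked to binding of any factor.

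Values are normalized counts, the reads of a gene over the size factor of its library, and whole reads (within 0.1 reads) could be recovered from 100% of them. Between 11851853 and 16306540 reads per library were counted on genes, and 1 read was worth 0.759 to 1.48 normalized counts. Stim1 stood at 1139 and 1377 normalized counts before stimulation in WT libraries, beside 1538 and 1868 where labelled (limma adjusted p = 0.236), and 645 and 673 against 552 and 642 after stimulation (limma adjusted p = 0.807). Stim2 likewise did not pass the test (limma adjusted p = 0.721 and 0.827). Before stimulation it stood at 906 and 908 normalized counts in WT libraries, beside 904 and 744 where labelled. Both labelled libraries lay below both WT libraries in Stim2 before and in Stim1 after stimulation, but neither gene was called in either state. These totals include reads outside the deleted part and so do not check the deletion. Foxp3 stood at 10000.52 and 8158.52 normalized counts before stimulation in WT libraries, beside 4947 and 4258 where labelled (limma adjusted p = 0.0591), and at 8525 and 11918 against 4474 and 7253 after it (limma adjusted p = 0.177). All 8 Treg markers (Foxp3, Il2ra, Ikzf2, Ctla4, Cd4, Cd3e, Cd3g and Trac) were detected in every library. Of these, 2 (Ctla4 and Ikzf2) were called lower by genotype in unstimulated cells. The sum of all 8 was 99890 and 92920 normalized counts in unstimulated WT libraries and 46100 and 53480 in unstimulated labelled libraries. After stimulation it was 99330 and 117900 in WT and 72780 and 91360 in labelled libraries. Ctla4 alone had 37403 and 35119 in unstimulated WT and 6338 and 17333 in labelled libraries, whereas Cd4 had 10760 and 8918 against 10363 and 7005. The sum thus follows its most abundant genes and does not measure the share of Treg cells. Markers of other cells stood out in the unstimulated labelled libraries, most in replicate 1. The sum of 12 myeloid markers was 10210 and 1607 normalized counts there (replicates 1 and 2), 263 and 303 in unstimulated WT libraries and 160 to 318 in stimulated libraries. C1qa and C1qc, macrophage complement genes, were at 0 in both unstimulated WT libraries, and 8 of the 10 myeloid markers tested rose by genotype in unstimulated cells. The sum of 10 B cell markers was 3805 and 924 against 352 and 383, with 2 of 10 called higher, and over all 8 libraries it ranged from 234 to 3805. Of 8 markers of CD8 T and NK cells, none was called by genotype, and their sum ranged from 447 to 2004 normalized counts, highest in replicate 1 of the stimulated labelled cells. Naive T cell genes summed to 48080 and 47570 in unstimulated WT and 53610 and 93460 in labelled libraries, and to 16670 and 16450 against 33470 and 44440 after stimulation. Satb1 alone had 15183 and 17809 in unstimulated WT and 19149 and 45797 in labelled libraries. By genotype in unstimulated cells 7 of these 9 genes had positive and 2 negative log2 differences, and Bach2 was called higher. Neutrophil genes summed to 91.6 to 713 normalized counts, and of 3 tested none was called by genotype. In stimulated cells no gene of these lists was called by genotype. The part of other cells in the results that follow was not tested.

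In unstimulated cells, 5 of the 8 receptors were lower in labelled than in WT libraries and none was called higher. The 5 were Tnfrsf9, Tnfrsf8, Tnfrsf4, Tnfrsf18 and Tnfrsf1b, which were 2.34 to 17.6 times lower. Calls required more than 1.5-fold and a Benjamini-Hochberg adjusted p below 0.05 by limma on log2(value + 1), the scale of every log2 difference given here, and 3.35% of all tested genes met this in the lower direction and 1.38% in the higher. Of all calls 29.2% were thus in the higher direction, and 40.6% were with the libraries rescaled to equal totals. The median log2 difference of the 8 receptors was -1.53, beside -0.01 for all tested genes. In the same 5 receptors both labelled libraries lay below both WT libraries, as did 27.1% of all tested genes, and in Fas both lay above, as did 26.5%. The study singled out Tnfrsf4, Tnfrsf9 and Tnfrsf18 from these same libraries, so their direction is not independent evidence. All 8 members were chosen with earlier results of these data known, so their count and median beside all genes are not independent evidence either. It also measured proteins of some of its differing genes by flow cytometry, which is not part of these data. In RNA of whole samples, fewer cells that express a gene cannot be told apart from less of its RNA per cell.

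**Figure D1:**
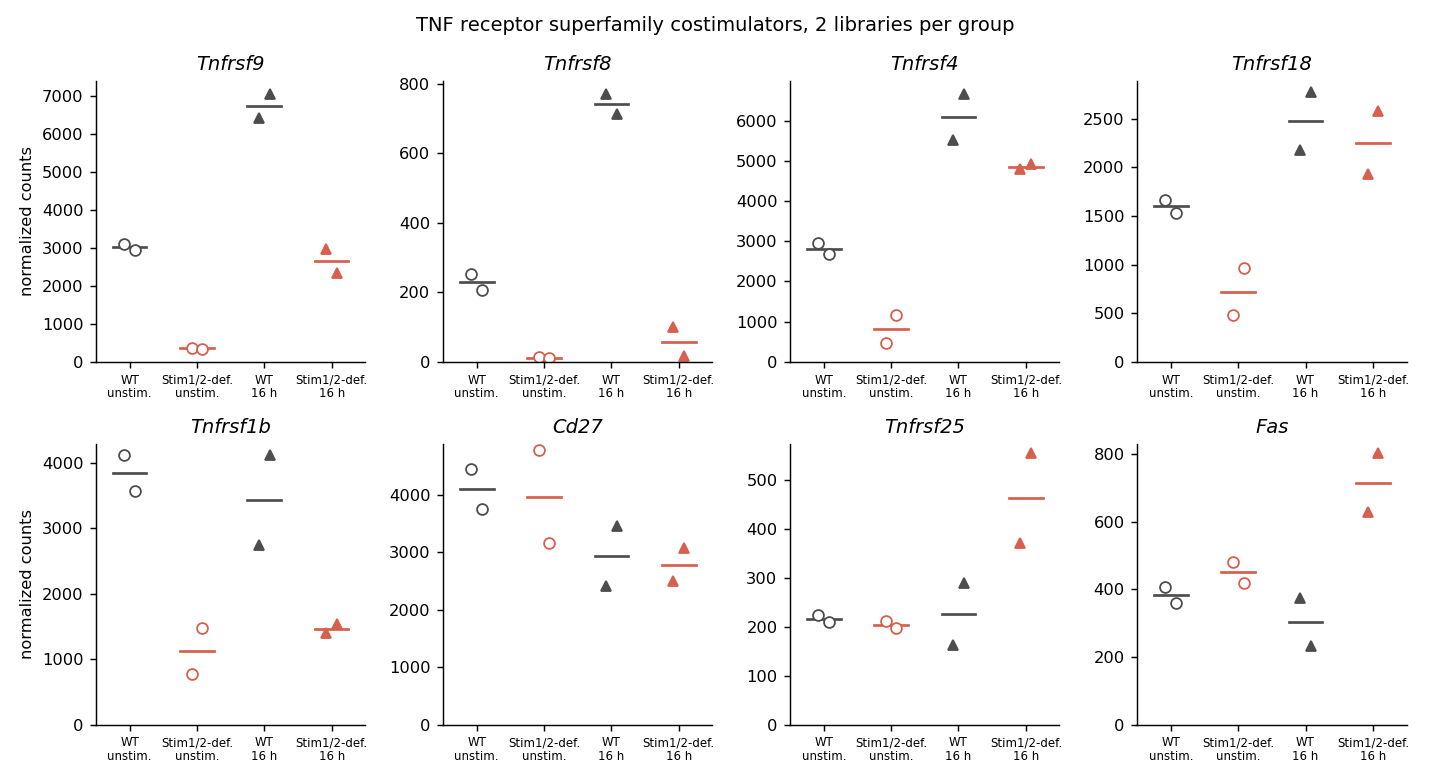
Normalized counts (y axes, each from 0) of the 8 receptors in every library, with circles for unstimulated and triangles for stimulated cells, grey for WT and red for libraries labelled Stim1/2-deficient, and a line at the mean of the 2 libraries of a group. Tnfrsf9 and Tnfrsf8 were low in both unstimulated labelled libraries, the genotypes of Tnfrsf18 overlap after stimulation, and Fas and Tnfrsf25 were highest in stimulated labelled libraries.

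Tnfrsf9 encodes 4-1BB, a TRAF-binding costimulator that is induced by antigen receptor signals. WT replicates 3 and 4 had 3118 and 2953 normalized counts, and labelled replicates 1 and 2 had 363 and 353. The groups were far apart, and the difference was 8.46-fold (log2 difference -3.08, standard error 0.18, limma adjusted p = 1.25e-04). Tnfrsf8 encodes CD30, which is found on activated lymphocytes. Its level was 254 and 207 normalized counts in WT and 13.6 and 10.7 in labelled libraries, the latter from 13 and 8 reads. Per kb of exon it was the lowest of the 8 in unstimulated cells, and at 17.6-fold it had the largest difference of the 8 (log2 difference -4.14, standard error 0.65, limma adjusted p = 0.0113).

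Tnfrsf4 and Tnfrsf18, the neighbouring genes of OX40 and GITR, encode costimulators that are constitutive on Treg cells. Tnfrsf4 had 2954 and 2671 normalized counts in WT and 461 and 1177 in labelled libraries. The labelled replicates differed from each other, yet both lay below WT, by 3.81-fold on average (log2 difference -1.93, standard error 0.34, limma adjusted p = 0.0181). Tnfrsf18 had 1666 and 1532 normalized counts against 481 and 964. Here too labelled replicate 1 was the lower, and the difference was 2.34-fold (log2 difference -1.23, standard error 0.30, limma adjusted p = 0.0486). Exons of Tnfrsf18 overlap those of the antisense gene Gm16008, and the strand setting of the counting was not given in the sources used here. Gm16008 had 236 and 226 normalized counts in WT libraries and 79.7 and 188 in labelled ones (limma adjusted p = 0.192). Tnfrsf1b, the receptor TNFR2 that responds to membrane-bound TNF and is enriched on Treg cells, had 4120 and 3566 normalized counts in WT libraries. It had 778 and 1480 in labelled libraries, a 3.57-fold difference (log2 difference -1.84, standard error 0.30, limma adjusted p = 0.0126).

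Cd27, Tnfrsf25 and Fas did not pass the test in unstimulated cells. Cd27, the costimulator of naive and memory T cells that binds CD70, had 4454 and 3752 normalized counts in WT libraries and 4774 and 3171 in labelled ones. These overlapped, with a log2 difference of -0.07 (95% interval -0.62 to 0.48, limma adjusted p = 0.901). Of the death domain receptors, Tnfrsf25 had 223 and 210 normalized counts against 211 and 196 (log2 difference -0.09, 95% interval -0.80 to 0.62, limma adjusted p = 0.906). Fas, which triggers apoptosis, had 407 and 359 against 481 and 419 (log2 difference 0.23, 95% interval -0.37 to 0.83, limma adjusted p = 0.665). The lower bounds of these 3 intervals all lay above the estimates of the 5 called receptors.

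Tnfrsf9 kept its call under each of 16 alternatives. Without WT replicate 3, the adjusted p (limma) was 0.189 for Tnfrsf8, 0.221 for Tnfrsf4, 0.196 for Tnfrsf1b and 0.378 for Tnfrsf18, and without WT replicate 4 it was 0.0798, 0.0915, 0.0798 and 0.162, so that 1 receptor remained called each time. Without labelled replicate 1, which held the most myeloid and B cell transcripts, 4 receptors were called, the difference of Tnfrsf4 was -1.26 on the log2 scale (-2.60 without labelled replicate 2), and Tnfrsf18 lost its call (log2 difference -0.73, limma adjusted p = 0.0991). Tnfrsf18 lay close to the threshold, and it also lost its call with equal totals (limma adjusted p = 0.061), upper quartiles (limma adjusted p = 0.0729) and edgeR (adjusted p = 0.0667). In all, Tnfrsf18 lost its call in 9 of the 16 alternatives and Tnfrsf4 in 3.

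After 16 h of anti-CD3/CD28, Tnfrsf8 and Tnfrsf9 were called lower in labelled libraries and no receptor was called higher, where 0.11% of all tested genes were called lower and 0.162% higher. The median log2 difference of the 8 receptors was -0.23, beside 0.02 for all tested genes. Both labelled libraries lay below both WT libraries in 4 receptors, beside 23.1% of all genes, and above them in 2, beside 24.3%.

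Tnfrsf8 had 770 and 714 normalized counts in stimulated WT libraries and 99.3 and 16.0 in labelled ones, so that labelled replicate 2 was the lower by far. The difference was 18.0-fold (log2 difference -4.17, standard error 0.65, limma adjusted p = 0.0392). Tnfrsf9 had 6435 and 7068 normalized counts against 2967 and 2334, a 2.56-fold difference (log2 difference -1.36, standard error 0.18, limma adjusted p = 0.0356). Both calls ended when either WT replicate or labelled replicate 2 was left out (limma adjusted p of 0.124 to 0.362), and the difference of Tnfrsf8 was -2.89 on the log2 scale without labelled replicate 2 and -5.45 without labelled replicate 1. By edgeR the adjusted p was 0.0666 for Tnfrsf8 and 0.0556 for Tnfrsf9. Tnfrsf1b had 2743 and 4115 normalized counts against 1391 and 1537 (log2 difference -1.20, standard error 0.30, limma adjusted p = 0.110). Its groups did not overlap, and some alternatives called it, among them DESeq2 (adjusted p = 0.00428), quantile normalization (limma adjusted p = 0.033) and a term for the replicate number (limma adjusted p = 0.0139), while edgeR did not (adjusted p = 0.113).

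OX40, GITR and CD27 did not pass the test after stimulation. Tnfrsf4 had 5513 and 6674 normalized counts in WT libraries and 4788 and 4929 in labelled ones (log2 difference -0.32, 95% interval -1.09 to 0.45, limma adjusted p = 0.745). Tnfrsf18 had 2175 and 2772 against 1926 and 2583, which overlapped (log2 difference -0.14, 95% interval -0.81 to 0.54, limma adjusted p = 0.891). Cd27 had 2419 and 3464 against 2493 and 3070 (log2 difference -0.07, limma adjusted p = 0.946). The death domain receptors lay on the other side. Fas had 374 and 232 normalized counts in WT libraries and 628 and 803 in labelled ones (log2 difference 1.27, standard error 0.27, limma adjusted p = 0.0782). Tnfrsf25 had 162 and 290 against 371 and 554 (log2 difference 1.06, standard error 0.32, limma adjusted p = 0.167). Neither passed the test, although the groups did not overlap in either gene. Fas was called by DESeq2 (adjusted p = 0.00428), and by limma without labelled replicate 1 (log2 difference 1.44, limma adjusted p = 0.0409).

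**Figure D2:**
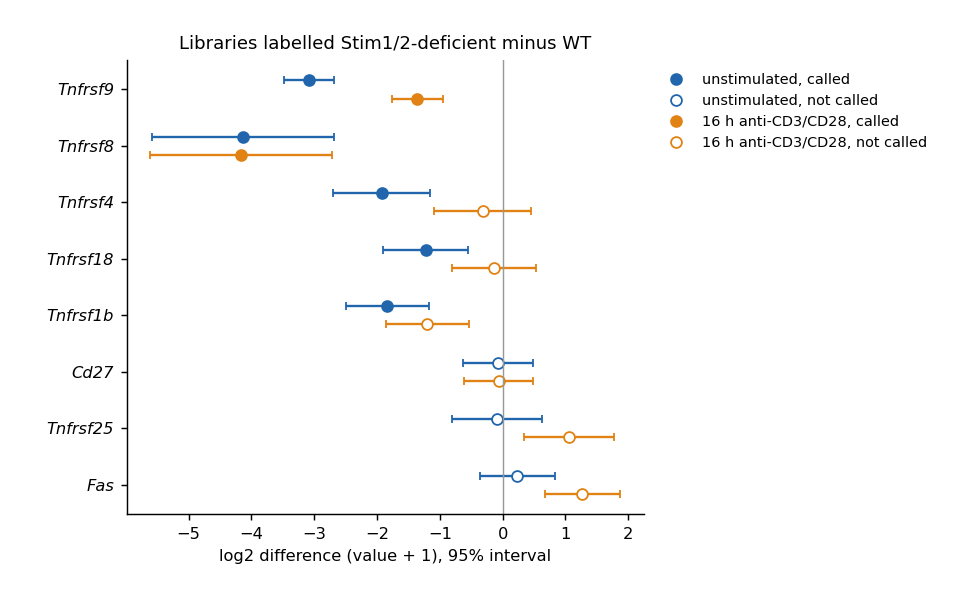
Log2 difference of each receptor between labelled and WT libraries (x axis, values + 1) with its 95% interval from limma, in unstimulated (blue) and stimulated cells (orange), filled where called. In unstimulated cells 5 receptors were called lower, and after stimulation Tnfrsf9 and Tnfrsf8 were.

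Whether the response to stimulation depended on genotype was tested as the interaction of the 2. By limma, 0.0% of all tested genes were called in either direction, and 1257 of 15419 had an unadjusted p under 0.05. By edgeR 0 genes had an adjusted p under 0.05 and by DESeq2 47 had, with 1246 and 1286 at an unadjusted p under 0.05. Of the 8 receptors, Tnfrsf9 had the largest interaction (log2 difference 1.72, standard error 0.26, unadjusted p = 4.66e-05, limma adjusted p = 0.170), followed by Tnfrsf4 (1.61, limma adjusted p = 0.556). Tnfrsf25, Tnfrsf18 and Fas had log2 values of 1.15, 1.09 and 1.03 (limma adjusted p = 0.569 each). Tnfrsf1b, Cd27 and Tnfrsf8 had 0.64, 0.01 and -0.03. DESeq2 called Tnfrsf9 (log2 difference 1.74, DESeq2 adjusted p = 1.25e-04). Without unstimulated labelled replicate 2, limma called Tnfrsf4, Tnfrsf9 and Tnfrsf18 (log2 values of 2.28, 1.70 and 1.59, adjusted p of 0.00543, 0.0159 and 0.0412), a fit in which unstimulated labelled cells are replicate 1 alone, the library with the most myeloid and B cell transcripts. Without replicate 1 in its place, the interaction was 0.93 for Tnfrsf4, 1.74 for Tnfrsf9 and 0.59 for Tnfrsf18, and none was called (limma adjusted p of 0.311, 0.127 and 0.566).

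Stimulation was compared with no stimulation within each genotype. Stimulated and unstimulated libraries differed by 16 h of culture and by the lane named in their descriptions, which cannot be told apart from the antibodies. In WT cells Tnfrsf9 and Tnfrsf4 rose and no receptor fell, while 10.2% of all tested genes were called higher and 13.1% lower. In labelled cells Tnfrsf9, Tnfrsf4, Tnfrsf18 and Tnfrsf25 rose and none fell, while 13.0% of all tested genes were called higher and 12.0% lower. Myeloid markers moved with stimulation in labelled cells, where 9 of 10 tested were called lower (median log2 difference -5.60), beside 1 of 10 in WT cells (median -0.86). B cell markers were negative in 10 of 10 in labelled cells, with 1 called, and in 4 of 10 in WT cells, with none called. Their part in the changes of the receptors was not tested. With the libraries rescaled to equal totals, the median of all genes moved to 0.52 on the log2 scale in WT cells and 0.35 in labelled cells, and in the genotype comparison of unstimulated cells to 0.11. The share of all calls that were in the higher direction then went from 44.0% to 81.4% in WT and from 51.8% to 77.9% in labelled cells, and 4 and 7 receptors were called higher. Upper quartile scaling moved it to -0.12 and -0.14 in the comparisons of stimulation. The values that follow are on the deposited scale, where that median was 0.01 in WT and -0.03 in labelled cells.

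Tnfrsf9 went from 3118 and 2953 to 6435 and 7068 normalized counts in WT cells, 2.22-fold (log2 difference 1.15, standard error 0.18, limma adjusted p = 0.00273). In labelled cells it went from 363 and 353 to 2967 and 2334, 7.34-fold (log2 difference 2.88, limma adjusted p = 4.96e-05). The stimulated labelled libraries thus overlapped the unstimulated WT libraries. Tnfrsf4 rose 2.16-fold in WT cells (log2 difference 1.11, standard error 0.34, limma adjusted p = 0.0413) and 6.58-fold in labelled cells (2.72, limma adjusted p = 8.74e-04). The latter was 2.04 on the log2 scale without unstimulated labelled replicate 1 and 3.39 without replicate 2, and it was called in both. The call in WT cells was lost when any of its 4 libraries was left out (limma adjusted p of 0.115 to 0.210). Tnfrsf18 rose 3.27-fold in labelled cells (log2 difference 1.71, standard error 0.30, limma adjusted p = 0.00376), and its log2 difference in WT cells was 0.62 (limma adjusted p = 0.164).

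Tnfrsf25 rose 2.22-fold in labelled cells (log2 difference 1.15, standard error 0.32, limma adjusted p = 0.0258), while in WT cells its stimulated libraries lay on either side of the unstimulated ones (log2 difference 0.00, 95% interval -0.71 to 0.72, limma adjusted p = 0.997). Its call was lost without unstimulated labelled replicate 2 (limma adjusted p = 0.082) or stimulated labelled replicate 2 (limma adjusted p = 0.145). Tnfrsf8 had log2 differences of 1.69 in WT and 1.66 in labelled cells, with no overlap of libraries, but a large error (standard error 0.65, limma adjusted p = 0.0848 and 0.0863). The value in labelled cells rested on 1 library, as it was 0.38 without stimulated labelled replicate 1 (limma adjusted p = 0.527) and 2.94, and called, without replicate 2 (limma adjusted p = 0.00255). Fas had -0.38 in WT and 0.66 in labelled cells (limma adjusted p = 0.339 and 0.0992), and Tnfrsf1b had -0.19 and 0.45 (limma adjusted p = 0.677 and 0.291). Cd27 had -0.50 and -0.49 (limma adjusted p = 0.172 and 0.171), the lowest value of the 8 receptors in both genotypes. Without unstimulated labelled replicate 2, Cd27 was called lower in labelled cells (log2 difference -0.79, limma adjusted p = 0.0462) and Tnfrsf1b higher (0.91, limma adjusted p = 0.0291).

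**Figure D3:**
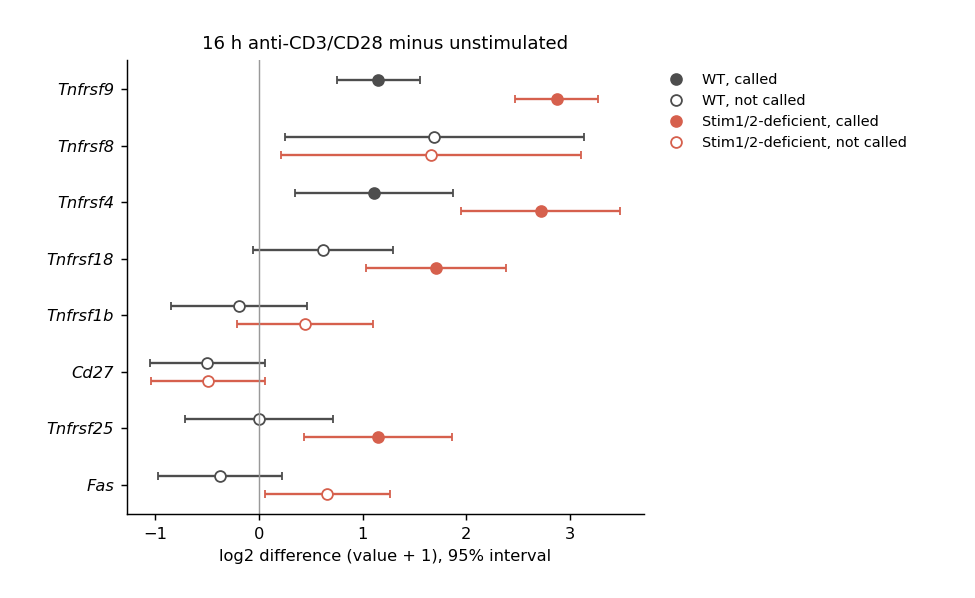
Log2 difference between stimulated and unstimulated libraries (x axis, values + 1) with its 95% interval from limma, in WT (grey) and labelled cells (red), filled where called. Tnfrsf9 and Tnfrsf4 were called higher in both, Tnfrsf18 and Tnfrsf25 in labelled cells, and Cd27 had negative values in both.

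Levels were compared between receptors as normalized counts per kb of exon, with exon lengths from GENCODE vM1. In unstimulated WT cells Tnfrsf4 was the highest (2060 ± 147 normalized counts per kb, SD, n = 2), followed by Cd27 (1762 ± 213). Tnfrsf9 (1115), Tnfrsf18 (1049) and Tnfrsf1b (1007) overlapped as neighbours, and Fas (213), Tnfrsf25 (95.1) and Tnfrsf8 (66.6) came last without overlap. In unstimulated labelled cells the order was another. Cd27 (1706 ± 487) was the highest, Tnfrsf4 (600.0), Tnfrsf18 (474), Tnfrsf1b (296) and Fas (233 to 267) overlapped from each to the next, and Tnfrsf9 (131) stood sixth, followed by Tnfrsf25 (89.4) and Tnfrsf8 (3.51). After stimulation Tnfrsf4 was the highest in WT (4464 ± 601) and in labelled cells (3559 ± 72.8). In stimulated WT cells Tnfrsf9 (2480) came next, followed by Tnfrsf18 (1623), Cd27 (1264) and Tnfrsf1b (898), each overlapping the next, and then by Tnfrsf8 (206 to 223) and Fas (168), which overlapped, and Tnfrsf25 (99.3). In stimulated labelled cells Tnfrsf9 (974 normalized counts per kb) overlapped Cd27 (1195), which overlapped Tnfrsf18 (1480), and Fas (397) and Tnfrsf1b (383) overlapped, followed by Tnfrsf25 (203) and Tnfrsf8 (16.7).

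Added up per kb, the 8 receptors had 7792 and 6943 normalized counts per kb in unstimulated WT libraries and 3405 and 3696 in labelled ones. After stimulation they had 10090 and 12330 in WT and 7838 and 8578 in labelled libraries. The sum was lower in labelled libraries in both states, without overlap. Cd27 made up 60.2% and 36.8% of it in the unstimulated labelled libraries, beside 24.6% and 23.2% in WT. Tnfrsf9 made up 3.91% and 3.5% in unstimulated labelled libraries and 14.7% and 15.6% in WT. After stimulation Tnfrsf4 took 39.6% to 44.8% in all 4 libraries.

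**Figure D4:**
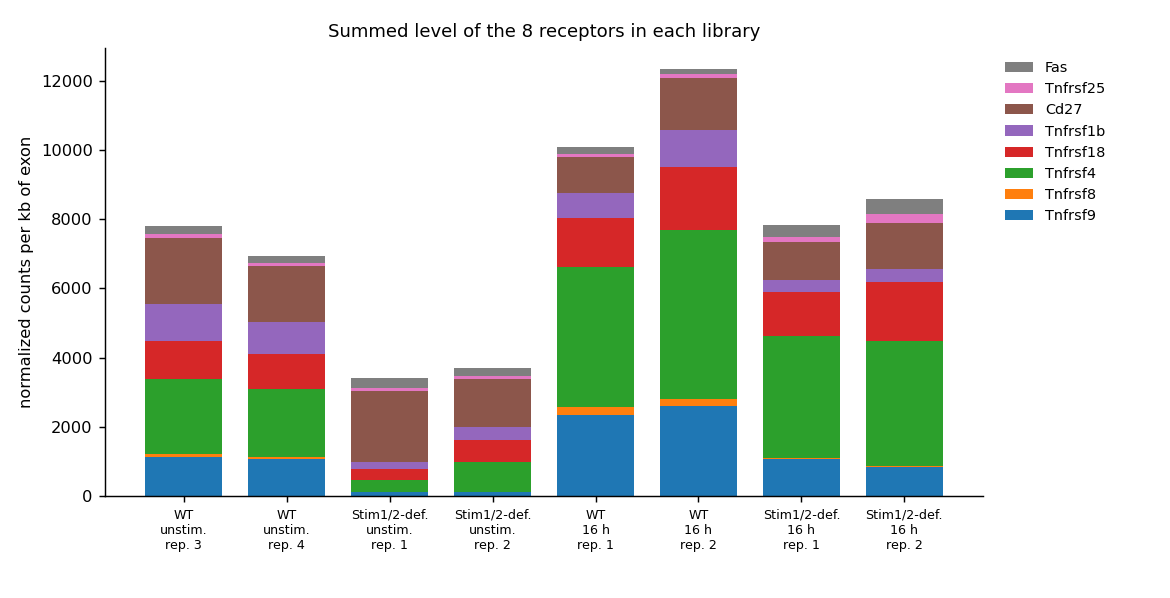
Stacked bars of the normalized counts per kb of exon (y axis) of the 8 receptors in each of the 8 libraries. The bars of the unstimulated labelled libraries are the lowest, at 3405 and 3696, and hold the largest share of Cd27.

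Other genes of the pathway were described from lists of ligands, further receptors, adaptors and NF-kB genes, of which 64 of 76 were tested. In unstimulated cells 1 was called lower and none higher, and in stimulated cells none was called by genotype. The medians of the 64 log2 differences were -0.24 and 0.22. The called gene was Tnfsf4, the ligand of OX40, with 162 and 171 normalized counts in unstimulated WT and 17.8 and 28.1 in labelled libraries, a 7.16-fold difference (log2 difference -2.84, standard error 0.42, limma adjusted p = 0.00966). Ligand and receptor of OX40 were thus both lower in the same unstimulated libraries. Leaving out WT replicate 3 or 4 ended the call of Tnfsf4 (limma adjusted p = 0.162 and 0.0798), and without labelled replicate 2 the count of pathway genes called lower was 11. After stimulation Tnfsf4 had 99.0 and 91.1 normalized counts in WT and 126 and 63.3 in labelled libraries (limma adjusted p = 0.960). Of ligands that pair with other members, Tnfsf8, the ligand of CD30, had 5576 and 5779 normalized counts in unstimulated WT and 1899 and 5595 in labelled libraries (limma adjusted p = 0.269). Tnfsf9, the ligand of 4-1BB, had between 8.01 and 36.5 in all libraries and was not called. Tnfsf18 and Cd70, the ligands of GITR and CD27, had means under 10 and were not tested.

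By stimulation, Tnf and Lta were the ligands called higher in WT cells (log2 differences 1.96 and 3.17) and, with Tnfsf4 (1.95), in labelled cells (1.52 and 2.91). None of 13 tested further receptors was called by genotype, and those with the highest mean counts, Tnfrsf26, Tnfrsf13b and Tnfrsf10b, had log2 differences of -0.42, -0.97 and -0.24 in unstimulated cells (limma adjusted p of 0.113 to 0.761). None of 23 adaptors was called by genotype. Tnfaip3, the ubiquitin-editing brake of NF-kB, stood at 66279 and 67129 normalized counts in unstimulated WT cells and at 27892 and 71529 in labelled cells (limma adjusted p = 0.387). With stimulation it fell by 4.74 on the log2 scale in WT cells and fell by 3.95 in labelled cells. Tab2 and Cyld, the next by mean count, had log2 differences by genotype of -0.31 and -0.20 in unstimulated cells (limma adjusted p = 0.314 and 0.579). None of 15 NF-kB genes was called by genotype. Their median log2 difference was -0.61 in unstimulated and 0.25 in stimulated cells, and it had the same sign under the 3 other scalings tried. In unstimulated cells labelled replicate 1 lay below replicate 2 in all of these genes except Nfkbiz, Ikbkb and Ikbkg. The median was not computed with a library left out. Rel, an NF-kB subunit with the highest mean count of its list, stood at 28959 and 32216 normalized counts in unstimulated WT cells and at 7622 and 18158 in labelled cells (log2 difference -1.38, limma adjusted p = 0.0549). Nfkb1 and Nfkbiz had -0.63 and -0.40 (limma adjusted p = 0.331 and 0.372).

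**Figure D5:**
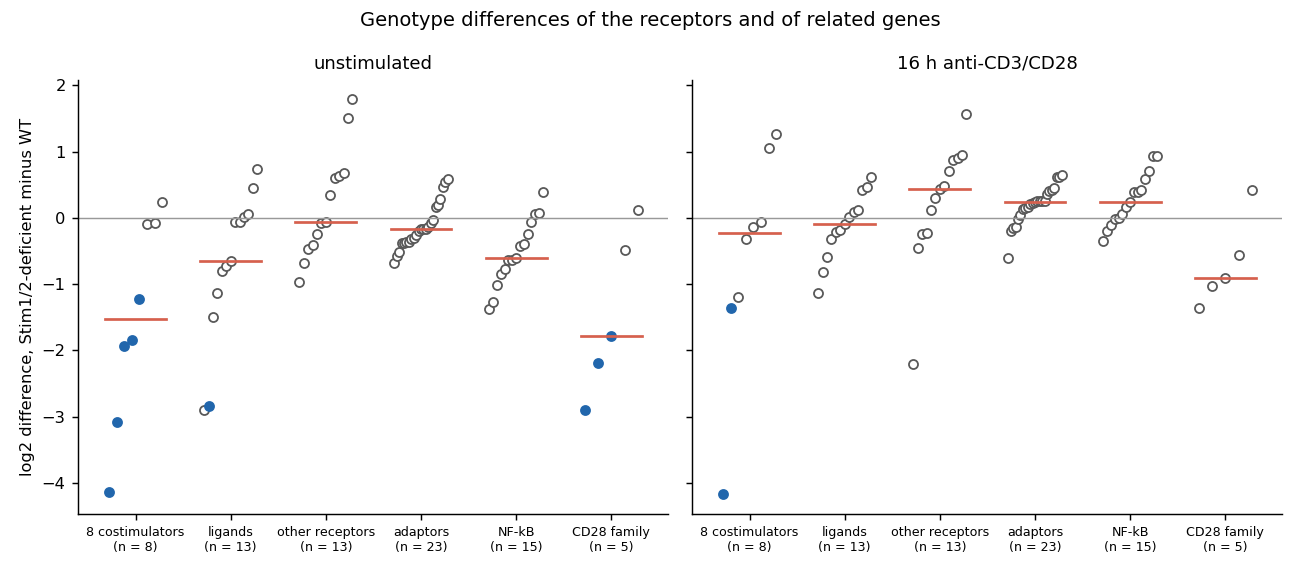
Log2 difference between labelled and WT libraries (y axis) of every tested gene of each list, sorted within the list, in unstimulated (left) and stimulated cells (right), filled blue where called and with a red line at the list's median. In unstimulated cells the called genes are 5 receptors, the ligand Tnfsf4 and 3 CD28 family genes.

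The CD28 family, which holds the other main costimulators and coinhibitors of T cells, was set beside the 8 receptors. In unstimulated cells 3 of its 5 genes were called lower and none higher. Icos, at 14389 and 13756 normalized counts in WT and 1701 and 2098 in labelled libraries, differed 7.44-fold (log2 difference -2.90, limma adjusted p = 1.25e-04). Pdcd1 (PD-1) and Ctla4 had log2 differences of -2.20 and -1.79 (limma adjusted p = 0.0104 and 0.0271). That of Ctla4, with 6338 and 17333 normalized counts in labelled libraries, was -1.06 without labelled replicate 1 and -2.52 without replicate 2, and it was called in both. Without WT replicate 3 or 4, 1 of the 5, Icos, remained called, an alternative chosen after seeing the data. Cd28 itself had -0.49 (limma adjusted p = 0.334), and Btla 0.12 (limma adjusted p = 0.794). After stimulation none of the 5 was called by genotype, and Icos, at -0.90, was nearest (limma adjusted p = 0.0661). The study named Icos, Pdcd1 and Ctla4 from these libraries too.

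For each member, the nearest tested gene on each side that did not overlap it, other members aside, was looked up. These genes lay 0.124 kb (Plekhg5, beside Tnfrsf25) to 338 kb (Gm13212, beside Tnfrsf1b) away, so the farther ones say little about a neighbourhood. Of 14 flanking genes tested, Park7, 10.2 kb from Tnfrsf9, was called lower in unstimulated labelled libraries and none was called higher. It had 285 and 216 normalized counts in WT libraries and 115 and 119 in labelled ones (log2 difference -1.08, limma adjusted p = 0.0417). Vps13d, which flanks the pair of Tnfrsf1b and Tnfrsf8, was not called. After stimulation none of the 14 was called by genotype.

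The genes whose profile over the 8 libraries was most like the mean standardized profile of the 8 receptors were Nelfe (Pearson r = 0.984), Clic1 (0.983), Adprh (0.98), Dok1 (0.974) and Ndufb9 (0.973). Of the receptors themselves, Tnfrsf18 (0.928), Tnfrsf4 (0.919) and Tnfrsf9 (0.919) were nearest to that mean, Tnfrsf1b (0.713), Tnfrsf8 (0.669) and Tnfrsf25 (0.459) less near, and Fas (-0.10) and Cd27 (-0.29) did not follow it. The mean profile includes each receptor itself, and the 8 libraries fall into 4 groups, so these values describe likeness and nothing else.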

How the data were processed

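RNA of mouse Treg cells was sequenced in 8 libraries. The deposited values are a signal in normalized counts. To make them, the authors scaled the reads counted on each gene by a size factor, 1 for each library, and kept 2 decimals. The methods state Bowtie on NCBIM37, removal of PCR duplicates with Picard, HTSeq and DESeq2, whereas the submitters' processing notes name STAR 2.7 and mm10. Positions and promoters were therefore taken by symbol from RefSeq (GRCm38.p6), and the annotation used for counting is not given in the sources used here.

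After a filter on low values (mean under 10 removed), log2(value + 1) was fitted in R 4.3.3 with limma 3.58.1, using lmFit and trended eBayes, as 4 groups with 1 spread. Tests were 2-sided, p was adjusted by Benjamini-Hochberg within each contrast, and calls needed more than 1.5-fold beside an adjusted p below 0.05. Fold changes on this scale understate those of low genes. Depth was 11851853 to 16306540 reads per library. Labels do not say that replicates are separate pools of mice, so p-values measure the spread between these samples. Replicate pairs differed by more than sampling noise (chi-square per degree of freedom of 9.96 to 68.8), and none was counted as 1 sample.

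Alternatives were other pseudocounts (0.1 and 5), filters, scalings and thresholds, count tests of the recovered reads (edgeR 4.0.16, DESeq2 1.42.0), fits to 4 libraries, a term for the replicate number and each library left out. The scripts were tested on simulated data. Members and lists were chosen with earlier results of these data known. Named genes are the members, called genes of each list or else its 3 most abundant, the 5 genes most like the members, and checks. Ligands that pair with members, flanking genes, stimulated list genes and some alternatives for Tnfsf4 and the CD28 family were chosen after seeing the data.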

Additional observations from a re-analysis of the deposited data

How the results depend on the processing

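Of the values of single receptors under alternatives, 570 kept their direction and their side of the threshold, 38 lost and 35 gained a call, and 37 changed sign. In unstimulated cells Tnfrsf18 lost its call in 9 of 16 alternatives, among them equal totals, upper quartiles and edgeR. The count of receptors called lower there was below 5 in each of these. Receptors called lower in unstimulated cells were 5, 3 in a fit of the 4 libraries and 1 to 5 with a library left out, and other pathway genes called lower were 1, against 2 with a pseudocount of 5 or a mean of at least 100, 3 with quantile normalization, 7 by DESeq2, 13 by unadjusted p and 0 to 11 with a library left out. Pathway genes called higher were 0, 1 by unadjusted p and 0 to 2 with a library left out. CD28 family genes called lower were 3, and 1 to 4 with a library left out (chosen after seeing the data). In stimulated cells receptors called lower were 2, 1 with a pseudocount of 0.1, 0 with every gene above 0, by edgeR and in the fit of 4 libraries, 3 by quantile normalization, DESeq2, unadjusted p and the replicate block, and 0 to 2 with a library left out. Receptors called higher were 0, 1 by quantile normalization and DESeq2, 2 by unadjusted p and 0 to 1 with a library left out. Pathway genes called higher there were 0, 1 by quantile normalization, 3 by DESeq2, 7 by unadjusted p and 0 to 2 with a library left out, and those called lower were 0, 1 by unadjusted p and 0 to 1 with a library left out. By stimulation in WT cells 2 receptors were called higher, 1 with every gene above 0 or upper quartiles, 4 with equal totals or the fit of 4 libraries, and 1 with any library left out. In labelled cells 4 were called higher, 3 in the fit of 4 libraries, 5 by quantile normalization and DESeq2, 6 by unadjusted p and 7 with equal totals, and 0 to 1 were called lower with a library left out. The interaction was called in 0 receptors, in 1 by DESeq2, 5 by unadjusted p and 0 to 3 with a library left out. For all of these the cause was not tested.

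Changes of sign concerned log2 differences that were not called. With equal totals, stimulation in WT cells gave 0.33 for Tnfrsf1b, 0.022 for Cd27 and 0.14 for Fas, which were -0.19, -0.49 and -0.37 after subtracting the median of all genes, and genotype in unstimulated cells gave 0.031 for Tnfrsf25 and 0.049 for Cd27. Quantile normalization gave 0.22 for Tnfrsf1b and -0.090 for Tnfrsf25 by stimulation in WT cells, and 0.0061 for Tnfrsf25 and 0.0025 for Cd27 by genotype in unstimulated cells. Upper quartiles gave -0.12 for Tnfrsf25 by stimulation in WT cells and 0.0011 for Cd27 by genotype in stimulated cells. The interaction of Tnfrsf8 was 0.025 with a pseudocount of 0.1, 0.35 with quantile normalization, 0.53 by edgeR and 0.55 by DESeq2, and that of Cd27 was -0.12 with equal totals, -0.15 with quantile normalization, -0.054 by edgeR and -0.034 by DESeq2. With a library left out, Tnfrsf1b ranged from -0.48 to 0.10 by stimulation in WT cells and from -0.017 to 0.91 in labelled cells, the interaction of Tnfrsf8 from -1.31 to 1.25, Tnfrsf18 in stimulated cells from -0.35 to 0.073 and Tnfrsf25 by stimulation in WT cells from -0.41 to 0.42. Cd27 ranged from -0.37 to 0.22 by genotype in unstimulated cells, from -0.32 to 0.19 in stimulated cells and from -0.29 to 0.30 in the interaction.

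Replicate numbers are shared by 3 of the groups, and the labels do not say that a number marks a shared pool or day. In all 3, replicate 1 had more B cell (3805 against 924, 1106 against 234 and 1646 against 350 normalized counts), CD8 T and NK cell, myeloid and neutrophil transcripts than replicate 2, and whether same-numbered samples share mice was not tested. The correlation of same-numbered deviations was 0.167 for genotype in stimulated cells and 0.257 for stimulation in labelled cells. With the replicate number as a block, 3 pathway genes were called higher by genotype in stimulated cells in place of 0, and Tnfrsf1b was called lower (log2 difference -1.20, limma adjusted p = 0.0139). With 2 libraries a group, differences of the size of that in Fas after stimulation were not settled, and Tnfrsf8 in labelled libraries rested on as few as 8 reads.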
